A study of Mus musculus with 12 samples.

Results

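Embryoid bodies without Foxk1 were compared at day 5 and day 3 of mesodermal differentiation by ATAC-seq, which maps open chromatin through the insertion of the Tn5 transposase. The 4 libraries used, of 12 in the series, were 2 Foxk1 knockout (KO) libraries of day 5 and 2 of day 3. All came from mouse embryonic stem cells that had been grown on irradiated fibroblast feeders, separated from them by plating, and shaken in mesodermal medium without doxycycline. Libraries of the iHA-Foxk1 line without doxycycline, 2 of day 5 and 2 of day 3, were used to look up the regions called in the KO and, at equal list length, for the same calls and counts in that line. Day 10 libraries of the KO and of a group labelled Control served only as a look-up. The labels do not say whether the KO line is a single clone, nor that the replicate libraries were made from separate cultures, so the spread between them may be technical. Peak names inside both files labelled KO day 5 carry the tag D7, and those of both iHA-Foxk1 day 5 files carry D5. Every difference between days below holds for libraries labelled day 5. Comparisons of the day change between the 2 lines may therefore set unlike days against each other.

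Each deposited list gives peak summits, the points of highest signal, with a score. The lists were cut to the 42129 highest scores on chromosomes 1 to 19 and X, the length of the shortest of the 4, and summits within 250 bp of each other were merged into 63492 regions. A region was called day-5-only when both KO day 5 libraries and neither KO day 3 library held a summit in it, and day-3-only in the reverse case. Of 41738 regions held by both libraries of at least 1 day, 3583 were day-5-only (8.58%) and 4533 were day-3-only (10.9%), and 26503 were held by all 4 libraries. These 2 percentages are the background for the counts by gene list at this setting. Totals over all regions at other settings are given with the gene lists.

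Foxk1 is a forkhead transcription factor that binds DNA through its winged-helix domain and recruits corepressors, and it is known for roles in muscle progenitors, in glucose metabolism and in the restraint of autophagy genes. In embryoid bodies, pluripotent cells pass through an epiblast-like stage, form mesoderm under Wnt, Nodal and BMP signals, and then give rise to cardiac, endothelial and blood progenitors. A change of open chromatin near a gene is not a measurement of its expression. In such bulk samples, fewer cells of a type and less open chromatin per cell cannot be told apart.

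The promoter sequences of 5 genes show where the summits of each day lay, and they were chosen because a region of 1 day only fell in them. Each line gives the 250 bases before a RefSeq gene start (GRCm38.p6, 5′ to 3′ along the gene), and the capitals mark the 21 bases centred on the best-ranked summit. Sp3, a zinc-finger factor that binds GC boxes, has 2 annotated starts, and each start's window held the region of a different day.
Sp3, downstream start, day-5-only, chr2:72979282-72979531, minus strand: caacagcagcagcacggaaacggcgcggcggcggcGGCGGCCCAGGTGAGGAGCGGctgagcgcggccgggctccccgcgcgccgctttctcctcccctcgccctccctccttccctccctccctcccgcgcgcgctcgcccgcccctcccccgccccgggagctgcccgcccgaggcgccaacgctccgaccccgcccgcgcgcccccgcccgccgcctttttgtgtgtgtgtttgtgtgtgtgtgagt
Sp3, upstream start, day-3-only, chr2:72980447-72980696, minus strand: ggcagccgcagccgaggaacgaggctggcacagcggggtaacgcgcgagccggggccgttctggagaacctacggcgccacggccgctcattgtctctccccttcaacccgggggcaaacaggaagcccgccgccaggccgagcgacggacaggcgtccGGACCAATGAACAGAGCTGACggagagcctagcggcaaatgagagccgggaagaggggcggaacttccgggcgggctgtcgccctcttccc
Klf15, a Krüppel-like factor, and Acta2, smooth muscle alpha-actin, an actin that early cardiomyocytes also use, held day-5-only regions just before their starts.
Klf15, day-5-only, chr6:90462326-90462575, plus strand: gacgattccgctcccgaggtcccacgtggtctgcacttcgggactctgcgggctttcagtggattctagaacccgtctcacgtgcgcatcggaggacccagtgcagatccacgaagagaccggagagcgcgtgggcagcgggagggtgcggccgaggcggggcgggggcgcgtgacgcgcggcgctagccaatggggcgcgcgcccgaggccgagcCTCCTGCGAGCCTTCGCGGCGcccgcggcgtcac
Acta2, day-5-only, chr19:34255374-34255623, minus strand: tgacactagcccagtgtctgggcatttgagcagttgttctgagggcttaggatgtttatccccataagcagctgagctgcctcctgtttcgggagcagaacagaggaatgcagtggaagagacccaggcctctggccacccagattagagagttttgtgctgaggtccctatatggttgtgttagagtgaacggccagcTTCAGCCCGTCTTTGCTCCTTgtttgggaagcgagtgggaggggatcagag
Pde5a, a phosphodiesterase that breaks down cyclic GMP, and Gdf1, a ligand that pairs with Nodal, held day-3-only regions before their starts.
Pde5a, day-3-only, chr3:122728908-122729157, plus strand: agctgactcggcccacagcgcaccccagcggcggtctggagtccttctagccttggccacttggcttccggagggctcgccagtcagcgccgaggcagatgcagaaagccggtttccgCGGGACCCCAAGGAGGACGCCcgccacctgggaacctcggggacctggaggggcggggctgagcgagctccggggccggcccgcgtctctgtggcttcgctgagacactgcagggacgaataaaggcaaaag
Gdf1, day-3-only, chr8:70329515-70329764, plus strand: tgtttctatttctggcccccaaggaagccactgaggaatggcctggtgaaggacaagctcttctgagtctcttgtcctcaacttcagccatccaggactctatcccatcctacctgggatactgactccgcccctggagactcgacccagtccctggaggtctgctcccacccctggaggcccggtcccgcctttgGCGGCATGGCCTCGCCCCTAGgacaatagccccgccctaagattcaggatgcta

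The full lists held 48391 and 42129 summits in the KO day 5 libraries and 59006 and 53456 in the KO day 3 libraries, and no file gives read depth. With equal list lengths, the last score kept was 3.32 in KO day 5 replicate 1, 1.31 in KO day 5 replicate 2, whose list was used whole, 6.47 in KO day 3 replicate 1 and 5.95 in KO day 3 replicate 2. In the 3 lists that were cut, the first score left out equalled the last one kept. The day 5 lists therefore reached into lower scores than the day 3 lists. The day 5 replicates shared 75.3% of their summits within 250 bp and the day 3 replicates 83.9%, against 71.4% to 72.1% for pairs of libraries across days. The replicates of each day were thus more alike than libraries of different days, by a small margin at day 5.

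Called regions lay mostly away from gene ends. Only 8.71% of day-5-only regions and 7.90% of day-3-only regions lay within 1 kb of an end of a protein-coding gene, against 41.1% of the regions held by all 4 libraries. Bodies of protein-coding genes held 44.2% of day-5-only and 36.2% of day-3-only regions, against 25.0% of regions held by all 4. The remaining 47.1% of day-5-only and 55.9% of day-3-only regions lay elsewhere, against 33.9%. Day-5-only regions were farther than 100 kb from any such gene end in 17.9% of cases and day-3-only regions in 27.6%. Called regions also had low scores. Their median rank among the 42129 kept summits was 30609 for day-5-only and 31474.5 for day-3-only regions, against 14374.8 for regions held by all 4, where rank 1 is the highest score. The top decile of ranks held 0.223% of day-5-only and 0.331% of day-3-only regions, against 13.4% of the regions held by all 4. The rule favours this, since a region near the end of the lists is easily missed in 1 library.

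Many called regions had a summit of the other day close by. Among day-5-only regions, 1280 (35.7%) had a day 3 summit of any score within 250 bp in the full lists, and among day-3-only regions 463 (10.2%) had a day 5 summit. Within 1 kb the shares were 48.5% of day-5-only and 20.7% of day-3-only regions, which leaves 1844 day-5-only and 3596 day-3-only regions with no summit of the other day that close. The full day 3 lists are longer than the day 5 lists, and their part in this difference was not tested.

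**Figure D1:**
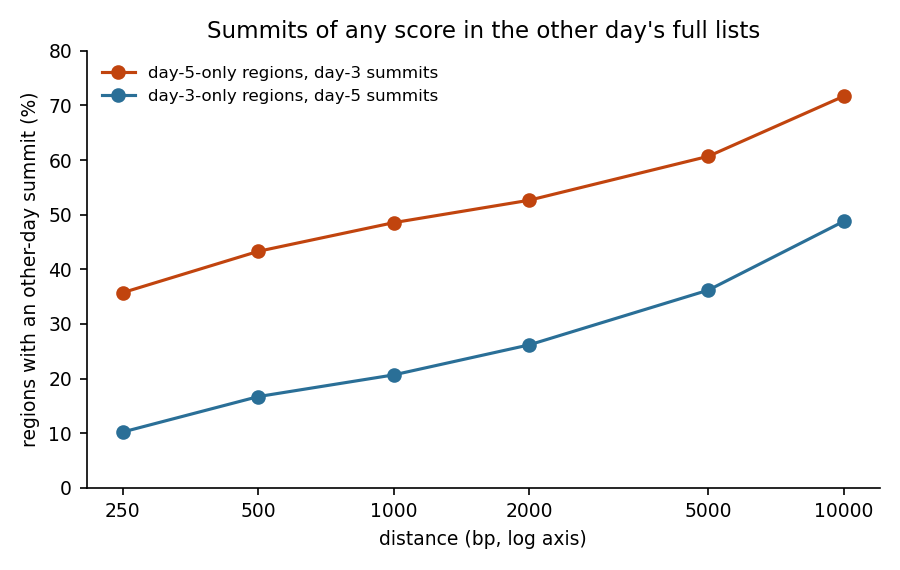
Share of KO called regions (percent, vertical axis) with a summit of any score of the other day within the distance on the logarithmic horizontal axis, in bp, over 3583 day-5-only and 4533 day-3-only regions. The day-5-only line starts at 35.7% and lies above the day-3-only line, which starts at 10.2%.

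At some genes the summit sat at one place at day 5 and at another at day 3. A day-3-only region lay within 1 kb of 217 day-5-only regions (6.06%), and a day-5-only region lay within 1 kb of 216 day-3-only regions (4.77%). Near gene ends this was so for 23.4% of day-5-only and 21.2% of day-3-only regions. Away from gene ends it was so for 4.40% of day-5-only and 3.35% of day-3-only regions. At Sp3 the KO day 5 summits lay at 960 and 1155 bases after the upstream start, and the KO day 3 summits at -81 and -113. At Pde5a the KO day 5 summits lay at 1251 and 1290 and the KO day 3 summits at -122 and -123. At Zic2, a zinc-finger factor of the epiblast and neural plate, the KO day 5 summits lay at -1042 and -1049 from the nearer gene end and the KO day 3 summits at -371 and -189. The positions of the 2 days did not overlap at any of these 3 genes, which were chosen after their values were seen. The lists hold no peak widths, so a shift of the highest point inside one open region and the loss of one region beside the gain of another cannot be told apart.

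In the iHA-Foxk1 libraries, which the calls did not use, these 3 genes split less cleanly by day. At Sp3 iHA-Foxk1 day 5 replicate 1 had summits at 888 and -215 and replicate 2 at 1208, and iHA-Foxk1 day 3 replicate 1 had one at -301 and replicate 2 had summits at -146 and 1291. At Pde5a iHA-Foxk1 day 5 replicate 1 had a summit at 29 and replicate 2 at -201 and 1291, and iHA-Foxk1 day 3 replicate 1 had summits at -162 and 831 and replicate 2 at -200. At Zic2 iHA-Foxk1 day 5 replicate 1 had a summit at -457 and replicate 2 at -1045, and iHA-Foxk1 day 3 replicates had summits at -340 and -276. At each gene the positions of the 2 iHA-Foxk1 days overlapped, or 1 day 5 replicate sat close to the day 3 position.

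**Figure D2:**
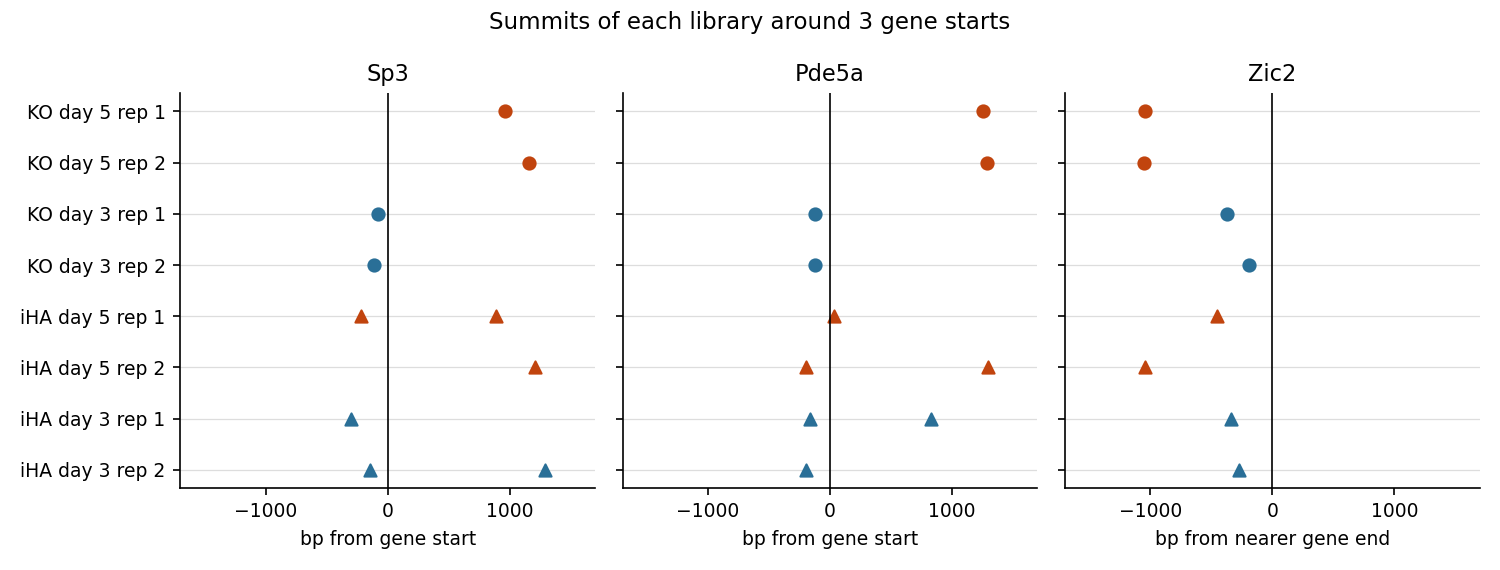
Positions of summits among the 42129 best of each library (all 14519 and 34040 in the iHA-Foxk1 day 5 lists) around Sp3, Pde5a and Zic2, in bp from the gene start or, for Zic2, whose strand was not in the tables used, from the nearer gene end. Rows are libraries, circles are KO, triangles iHA-Foxk1, red day 5 and blue day 3. In the KO rows the day 5 summits at Sp3 lie at 960 and 1155 and the day 3 summits at -81 and -113.

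Calls made in the KO were found again, by day, in the iHA-Foxk1 libraries. Each iHA-Foxk1 list was taken at its 14519 best summits, which is the whole list of day 5 replicate 1. Day-5-only regions of the KO then held a summit in 12.6% and 12.9% of cases in the iHA-Foxk1 day 5 libraries, against 1.70% and 1.93% in the iHA-Foxk1 day 3 libraries. Day-3-only regions held one in 2.43% and 1.24% of cases in the iHA-Foxk1 day 5 libraries, against 9.18% in each iHA-Foxk1 day 3 library. Both sets thus went with the label of the day in all 4 libraries, and the libraries of the 2 days did not overlap. At 34040 summits per list, which iHA-Foxk1 day 5 replicate 1 does not reach, day-5-only regions were held at 40.0% in day 5 replicate 2, against 11.1% and 10.7% in the day 3 libraries. Day-3-only regions were held at 9.99% in that day 5 library, against 42.5% and 43.0% in the day 3 libraries. In the full iHA-Foxk1 day 3 lists, 65.4% and 66.4% of the KO day-3-only regions had a summit. The same lists held a summit in 29.0% and 30.4% of the day-5-only regions and in 93.9% and 94.3% of the regions held by all 4 KO libraries. The split was at least as clear for the regions with no summit of the other day within 1 kb: at 14519 summits, such day-5-only regions were held at 12.5% and 14.6% in the day 5 libraries, against 0.542% and 0.597% in the day 3 libraries.

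**Figure D3:**
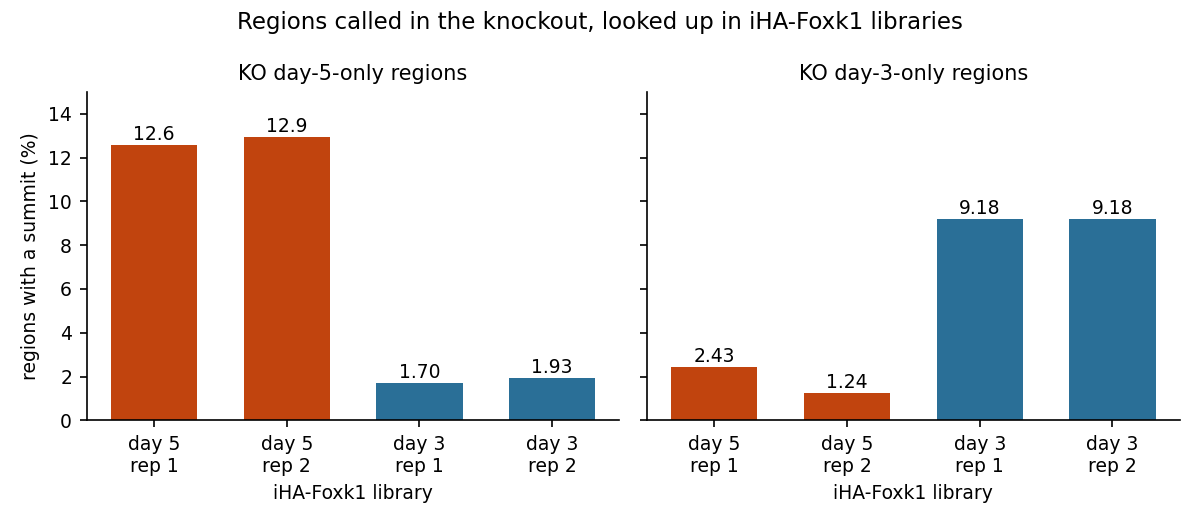
Share of KO day-5-only (left) and day-3-only (right) regions with a summit in each iHA-Foxk1 library (percent, vertical axis), every library cut to its 14519 best summits. Bars are single libraries, red day 5 and blue day 3; day-5-only regions reach 12.6% and 12.9% in the day 5 libraries and 1.70% and 1.93% in the day 3 libraries.

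The same rule was applied to both lines at 14519 summits per library, with the summits of all 8 libraries merged together, which gives slightly other counts than merging the 4 KO libraries alone. It called 1486 KO regions day-5-only (9.6%) and 1534 day-3-only (9.91%). It called 2097 iHA-Foxk1 regions day-5-only (13.6%) and 3462 day-3-only (22.5%). This length is the whole list of iHA-Foxk1 day 5 replicate 1, down to its lowest score of 1.32, while every other list was cut. The part of this in the difference between the lines' counts was not tested. The 2 lines shared 486 day-5-only regions, 32.7% of those of the KO and 23.2% of those of iHA-Foxk1. They shared 572 day-3-only regions, 37.3% of those of the KO and 16.5% of those of iHA-Foxk1. Opposite calls were few, with 13 regions day-5-only in the KO and day-3-only in iHA-Foxk1, and 5 regions in the reverse case.

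The day 10 lists are far shorter (4028 and 4755 summits in the KO and 10548 and 7764 in the Control libraries) and their peak names lack the duplicate-removal tag of the earlier files. Day-5-only regions held a summit in 1.70% and 1.45% of cases in the KO day 10 libraries and in 3.10% and 2.04% in the Control day 10 libraries. Day-3-only regions held one in 0.265% and 0.287% of cases in the KO day 10 libraries and in 0.949% and 0.529% in the Control day 10 libraries. In each of the 4 day 10 libraries the share was higher for day-5-only than for day-3-only regions.

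The best-ranked regions of 1 day only were taken from those with no summit of the other day within 1 kb. Among day-5-only regions away from gene ends, the first lay in Nr3c1, the glucocorticoid receptor gene, and ranked 6831 and 7492 in the KO day 5 libraries and 8798 in iHA-Foxk1 day 5 replicate 2. It was in no other iHA-Foxk1 list. A region in Oxr1, a gene of resistance to oxidative stress (chr15:41830854-41830874), ranked 8455 and 9685 in the KO day 5 libraries, and the nearest KO day 3 summit lay 36446 bp away. It ranked 12551 and 9651 in the full iHA-Foxk1 day 5 lists, was not in iHA-Foxk1 day 3 replicate 1 and ranked 39970 in replicate 2. A region near Macc1, a regulator of the hepatocyte growth factor receptor gene (chr12:119377111-119377116), ranked 11537 and 6687 in the KO day 5 libraries and was in none of the 4 iHA-Foxk1 lists. Regions near Brf2, an RNA polymerase III initiation factor, and near Vav3, a guanine nucleotide exchange factor, ranked 9579 and 12863 and 11463 and 12561 in the KO day 5 libraries. The Klf15 region shown above (chr6:90462545-90462552) lay 24 bases before a start of the promoter table that is inside the gene's annotated span, 1502 bp from its nearer end, and so counts as away from gene ends. It ranked 8708 and 13999 in the KO day 5 libraries and 8535 in iHA-Foxk1 day 5 replicate 2, was not in replicate 1, and ranked 19760 in iHA-Foxk1 day 3 replicate 1.

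Of day-5-only regions at gene ends, the best-ranked was at H2ac19, a histone H2A gene that lies among near-identical copies, so its place is uncertain (ranks 5071 and 4226). Next came the Sp3 region (7061 and 8603), then Slitrk5, a neuronal membrane protein (11070 and 9844), and Etv1, an ETS factor (12838 and 13448). The region at Tnfrsf12a, the receptor for the cytokine TWEAK, ranked 16808 and 14098. The Acta2 region (chr19:34255414-34255525) ranked lower, at 26380 and 21597 in the KO day 5 libraries. It ranked 9676 and 13868 in the iHA-Foxk1 day 5 lists, which are shorter, so that these ranks cannot be compared with those of the KO, and no iHA-Foxk1 day 3 list had a summit there. Acta2 was chosen for its sequence after its values were seen.

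The day-3-only region with the best rank lay in Snph, which encodes a protein that anchors mitochondria in axons (chromosome 2, base 151610953). It ranked 2830 and 3693 in the KO day 3 libraries and 2844 and 2240 in the iHA-Foxk1 day 3 lists, and no day 5 list of either line held it. A region in Niban1 ranked 6975 and 5447 in the KO day 3 libraries and 2659 and 4736 in iHA-Foxk1 day 3. A region near Efemp1, which encodes an extracellular matrix protein (chr11:28934664-28934705), ranked 6655 and 8322, and the nearest KO day 5 summit was 80993 bp away. Regions in Zeb2, a repressor of epithelial genes (9996 and 6981), near Tbx18, a T-box factor of the epicardium (9307 and 7851), and near St18, a zinc-finger factor (7377 and 7302), were in both iHA-Foxk1 day 3 lists too. A region near Cdh10, a cadherin, ranked 13699 and 5063 and was in none of the 4 iHA-Foxk1 lists. At gene ends, Zfp296, a zinc-finger gene of pluripotent cells, held a day-3-only region ranked 20551 and 13514, and the Pde5a region ranked 5199 and 7801.

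Of the 8 best-ranked regions of each kind, those away from gene ends were in both iHA-Foxk1 lists of the same day in 4 cases for day-5-only and 7 for day-3-only, and in neither in 1 case each. At gene ends the counts in both lists of the same day were 3 of 8 for day-5-only and 4 of 8 for day-3-only. No region away from a gene end was in both iHA-Foxk1 lists of the other day. At gene ends 2 day-5-only regions and 1 day-3-only region were. All these counts used the full iHA-Foxk1 lists, which held 14519 and 34040 summits at day 5 and 53473 and 54100 at day 3. The counts of the 2 directions are therefore not comparable.

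Called regions were spread over 2405 genes for day 5 and 2802 for day 3, with at most 5 for a gene in either direction. Genes with 5 day-5-only regions were Plekha7, a protein of epithelial adherens junctions, Rbpms, an RNA-binding protein of smooth muscle and heart, Pcdh7, a protocadherin, Rai14, an actin-associated protein, and Gm15319. Of their reproducible regions (held by both libraries of at least 1 day), these were 5 of 10 at Plekha7, 5 of 14 at Rbpms, 5 of 11 at Pcdh7, 5 of 9 at Rai14 and 5 of 16 at Gm15319. Day-3-only regions numbered 5 of 9 at Lpp, a focal adhesion protein, 5 of 9 at Arhgap28, a GTPase-activating protein, and 5 of 7 at Lclat1, a lipid acyltransferase. They numbered 4 of 4 at Cyp4f15, a cytochrome P450, and 4 of 8 at Ephb1, an ephrin receptor. Most of these genes are long, from 17722 bp at Cyp4f15 and 25539 bp at Gm15319 to 599229 bp at Lpp.

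The Foxk1 gene itself (gene 17425, chr5:142401497-142462015) held summits in the KO libraries of both days. A region at its start (chr5:142401416-142401563) ranked 7071 and 9690 at day 5 and 11813 and 15182 at day 3, so that the 2 days did not overlap. An intragenic region (chr5:142440536-142440663) ranked 4872 and 4322 at day 5 and 1975 and 1882 at day 3. A day-5-only region lay inside the gene (chr5:142416404-142416428), with ranks 15933 and 19362, and the full KO day 3 replicate 2 list held a summit there at rank 48641. In iHA-Foxk1 it ranked 7053 and 7692 at day 5 and 29901 and 19207 at day 3. Summits cannot show which part of the gene was deleted, so they do not check the knockout. At Foxk2, the paralogue of Foxk1, a region at the gene's start was held by all 4 libraries and ranked 2940 and 5211 at day 5 and 6443 and 9228 at day 3.

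Regions were assigned to the nearest end of a protein-coding gene within 100 kb and counted over 24 gene lists with 490 symbols, some of them in more than 1 list. Near any listed gene lay 1347 reproducible regions, of which 134 were day-5-only and 135 day-3-only. The lists are small, and with 2 libraries a day no test of a list is possible below p = 0.333 (exact permutation test), so counts are set beside the background of 8.58% and 10.9% and described.

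**Figure D4:**
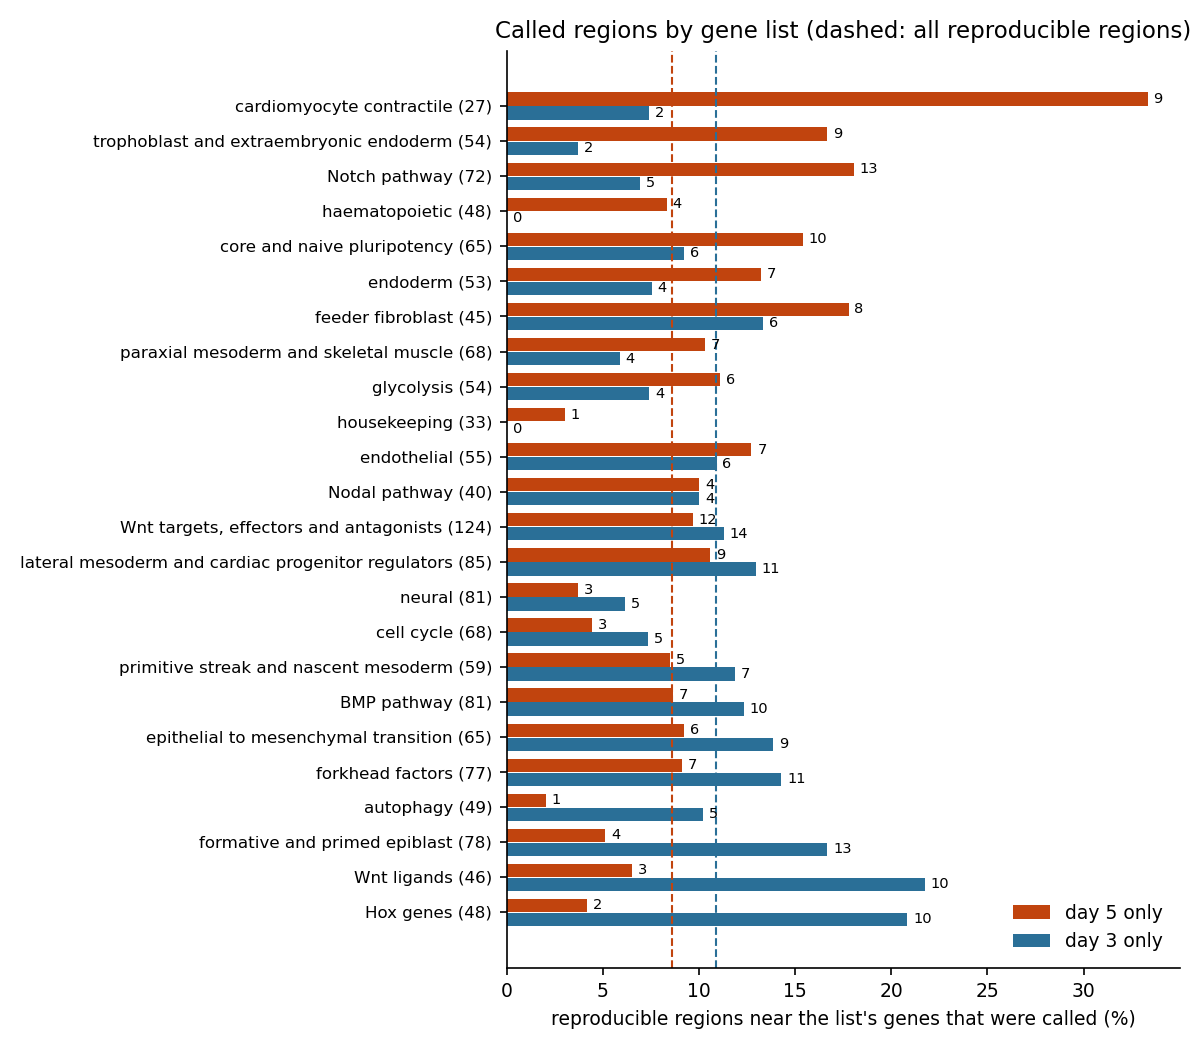
Share of reproducible regions near the genes of each list (percent, horizontal axis) that were day-5-only (red) or day-3-only (blue), with the number of regions at the bar ends and of all reproducible regions of the list in brackets. Dashed lines are the shares over all reproducible regions, 8.58% and 10.9%; the contractile list stands at 33.3% day-5-only, and the Wnt ligands at 21.7% day-3-only.

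Genes of the heart muscle's contractile apparatus had the highest day-5-only share of the 24 lists. Of 27 reproducible regions near 14 of its 20 genes, 9 were day-5-only (33.3%) and 2 day-3-only (7.41%). The day-5-only regions lay at Tpm1, tropomyosin (3 regions), Tnni1, slow troponin I (2), Ryr2, the calcium release channel (2), Pln, phospholamban, the inhibitor of the calcium pump (1), and Myl7, atrial myosin light chain (1). Day-3-only regions lay at Ryr2 (1) and at Myl2, ventricular myosin light chain (1). The best-ranked region of Tpm1 (chr9:67078115-67078173) ranked 18918 and 15038 at day 5. Both day 3 libraries had a summit there below the cut, at ranks 47880 and 48954. The region in Tnni1 (chr1:135794680-135794827) ranked 21005 and 26830 at day 5 and was in neither full KO day 3 list, but a KO day 3 summit lay 753 bp away. Both full iHA-Foxk1 day 3 lists held this region (36656 and 46747), as did iHA-Foxk1 day 5 replicate 2 (24963) but not replicate 1. One at Ryr2 ranked 34613 and 19081 at day 5, with day 3 summits at ranks 45489 and 49231, and one at Pln ranked 36971 and 24142, with a day 3 summit at 47963 in replicate 1 only. More day-5-only than day-3-only regions were counted under each of 13 alternative settings, but the sizes moved. The counts were 4 and 2 with merging at 100 bp, 3 and 1 with no summit of the other day within 1 kb, 4 and 0 at 21064 summits per library and 1 and 0 at 14519. Without KO day 5 replicate 1 they were 17 and 3, beside 9608 and 7153 over all regions. Without replicate 2 they were 14 and 3, beside 9393 and 6908. In these 2 settings all regions together also had more day-5-only than day-3-only calls.

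Notch pathway genes had 13 day-5-only (18.1%) and 5 day-3-only regions (6.94%) among 72. The day-5-only regions belonged to 10 genes. Receptors were Notch1 (2 regions) and Notch3 (1), ligands were Dll1, Jag1 and Jag2 (1 each), and nuclear effectors were Rbpj, the DNA-binding partner (3), and the coactivators Maml1 and Maml2 (1 each). Among target repressors, Hes1 and Hey1 had 1 each. The day-3-only regions lay at Notch3 (2), Rbpj, Jag2 and Hes5 (1 each). The best-ranked day-5-only region, near Maml1 (chr11:50252295-50252325), ranked 18314 and 18665 in the KO day 5 libraries. The full KO day 3 replicate 1 list held a summit there below the cut, at rank 50843. The region's ranks in the iHA-Foxk1 day 5 lists were 14010 and 17720, and it was in neither iHA-Foxk1 day 3 list. The order of the 2 counts held under each of 13 alternative settings, with 7 and 2 regions where no summit of the other day lay within 1 kb and 4 and 1 at 14519 summits per library. Without KO day 5 replicate 1 the counts were 26 and 11, beside 9608 and 7153 over all regions. Without replicate 2 they were 23 and 7, beside 9393 and 6908, so all regions together leaned to day 5 there too.

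Wnt ligand genes and Hox genes leaned to day 3. The 46 regions near Wnt ligands held 3 day-5-only (6.52%) and 10 day-3-only regions (21.7%). Day-3-only regions lay at Wnt7b and Wnt8a (2 each), and at Wnt2, Wnt3, Wnt9b, Wnt10b, Wnt11 and Wnt16 (1 each), and Wnt3 and Wnt8a act in the primitive streak. Day-5-only regions lay at Wnt1, Wnt5a and Wnt6 (1 each), and at each of these 3 at least 1 full day 3 list held a summit within 250 bp. The Wnt16 region at the gene's end (chr6:22288136-22288141) ranked 8276 and 8175 at day 3, and in iHA-Foxk1 7923 and 17097 at day 5 and 5274 and 2644 at day 3. The nearest KO day 5 summit lay 311 bp away, so this region drops out when none is allowed within 1 kb. The counts were 0 and 9 where no summit of the other day lay within 1 kb, beside 1844 and 3596 over all regions. The order of the 2 counts held under each of 13 alternatives, with 1 and 3 regions at 14519 summits per library. The counts were 9 and 13 without KO day 5 replicate 1 and 7 and 12 without replicate 2.

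The 48 regions near Hox genes, which set position along the body axis, held 2 day-5-only (4.17%) and 10 day-3-only regions (20.8%). The day-3-only regions included 1 each at Hoxb1, Hoxb3, Hoxb7, Hoxb9, Hoxc4, Hoxc6, Hoxc12, Hoxc13 and Hoxd1, and the day-5-only regions lay at Hoxa5 and Hoxb1. At the halved list length of 21064 the order turned to 2 day-5-only and 0 day-3-only regions, and at 14519 summits there were none of either kind. The best-ranked, near Hoxd1 (chr2:74790110-74790147), ranked 25839 and 25704 at day 3.

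Genes of the formative and primed epiblast, the stage between naive pluripotency and germ layers, held 4 day-5-only (5.13%) and 13 day-3-only regions (16.7%) among 78. The day-3-only regions included 2 each at Zic2, Foxd3 and Sox4 and 1 each at Otx2, Pou3f1, Lef1, Sall2 and Etv5, and day-5-only regions at Zic2, Zic5, Foxd3 and Sox4. The Zic2 regions were among the strongest, with ranks 10283 and 9570 for the day-5-only and 7143 and 3828 for the day-3-only region. Zic2 had 3 reproducible regions, and none was held by all 4 libraries. At 14519 summits per library the counts were 2 and 1, beside 1487 and 1557 over all regions. Without KO day 5 replicate 2 they were 17 and 16, beside 9393 and 6908 over all regions. The order of the raw counts turned in these 2 settings. In the second of them the list still leaned less to day 5 than all regions did.

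Core and naive pluripotency genes had 10 day-5-only (15.4%) and 6 day-3-only regions (9.23%) among 65. Esrrb, a nuclear receptor of naive cells, had 3 day-5-only and 0 day-3-only regions, and Tbx3 had 2 and 1. Dppa4 and Prdm14 had 1 day-5-only region each, Klf5 and Sall4 1 day-3-only region each, and Sox2, Dppa3 and Tfcp2l1 1 of each kind. The best-ranked of Esrrb (chromosome 12, base 86501915) ranked 26984 and 28218 at day 5. The order of the counts turned to 5 and 10 with all summits, to 0 and 2 at 14519 summits, and to 3 and 4 where no summit of the other day lay within 1 kb. Over all regions the totals were 2693 and 8538 with all summits and 1844 and 3596 under the 1 kb rule.

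The haematopoietic list had 4 day-5-only (8.33%) and 0 day-3-only regions among 48. The 4 lay at Meis1 (2), Runx1, the master factor of blood stem cells (1), and Gfi1b, a repressor of erythroid and megakaryocytic cells (1). The Runx1 region (chr16:92632264-92632357) ranked 24881 and 23084 at day 5, and the nearest KO day 3 summit was 22476 bp away. With all summits the counts were 3 and 7, beside 2693 and 8538 over all regions, and with merging at 100 bp 3 and 4. Endothelial genes had 7 day-5-only (12.7%) and 6 day-3-only regions (10.9%) among 55, and 8 of 13 alternatives turned that order of raw counts. The totals over all regions shifted in these settings too. With all summits the endothelial counts were 6 and 12, beside 2693 and 8538 over all regions. With no summit of the other day within 1 kb they were 2 and 4, beside 1844 and 3596. A day-5-only region in Tek, the angiopoietin receptor, ranked 25172 and 25501, and a day-3-only region in Flt1, a VEGF receptor, ranked 22849 and 25831.

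Regulators of mesoderm and heart progenitors were near the background in both directions. Lateral mesoderm and cardiac progenitor regulators had 9 day-5-only (10.6%) and 11 day-3-only regions (12.9%) among 85, with day-5-only regions at Fgf10, Bmp4, Tbx3 and Myocd and day-3-only regions at Tbx3, Bmp4, Foxh1 and Mef2c among the best-ranked. Primitive streak and nascent mesoderm genes had 5 day-5-only (8.47%) and 7 day-3-only regions (11.9%) among 59. Aplnr, the apelin receptor of migrating mesoderm, held a day-5-only region ranked 18322 and 23173, 27482 bp from any KO day 3 summit. Eomes, a T-box factor of the streak, held a day-3-only region ranked 20722 and 22348, and Foxa2, a forkhead factor of the anterior streak, one ranked 14072 and 19307. Genes of the epithelial to mesenchymal transition had 6 day-5-only (9.23%) and 9 day-3-only regions (13.8%) among 65. BMP pathway genes had 7 day-5-only (8.64%) and 10 day-3-only regions (12.3%) among 81, and Nodal pathway genes 4 of each among 40. Gdf1 was among the Nodal pathway genes, with its day-3-only region at the start (18992 and 17172) and a day-5-only region at chr8:70332246-70332298 (22419 and 28878).

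Paraxial mesoderm and skeletal muscle genes had 7 day-5-only (10.3%) and 4 day-3-only regions (5.88%) among 68. Wnt targets, effectors and antagonists had 12 day-5-only (9.68%) and 14 day-3-only regions (11.3%) among 124, and forkhead factors, Foxk1 included, 7 day-5-only (9.09%) and 11 day-3-only regions (14.3%) among 77. Glycolysis genes, on which Foxk1 is known to act, had 6 day-5-only (11.1%) and 4 day-3-only regions (7.41%) among 54. Autophagy genes had 1 day-5-only region (2.04%), at Wipi2, and 5 day-3-only regions (10.2%), among them Atg7, Atg10, Tfeb and Ulk2, of 49. Cell cycle genes had 3 day-5-only (4.41%) and 5 day-3-only regions (7.35%) among 68. Housekeeping genes had 1 day-5-only region (3.03%) and 0 day-3-only regions among 33, of which 29 were held by all 4 libraries. The order of the 2 counts turned under 2 to 5 of 13 alternatives in each of these 7 lists. These are orders of raw counts, and the totals over all regions shifted between settings too, for instance to 2693 and 8538 with all summits.

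Markers of other cell types that an embryoid body can hold gave counts in the same range as the developmental lists. Trophoblast and extraembryonic endoderm genes had 9 day-5-only (16.7%) and 2 day-3-only regions (3.70%) among 54, at Cubn and Tfap2c (2 each) and at Dab2, Sox17, Gata4, Lamb1 and Col4a2 (1 each). With all summits the counts turned to 5 and 16, beside 2693 and 8538 over all regions. Feeder fibroblast genes had 8 day-5-only (17.8%) and 6 day-3-only regions (13.3%) among 45, endoderm genes 7 day-5-only (13.2%) and 4 day-3-only regions (7.55%) among 53, and neural genes 3 day-5-only (3.70%) and 5 day-3-only regions (6.17%) among 81. The order turned under 6 of 13 alternatives for feeder fibroblast, 4 for endoderm and 1 for neural genes. These are orders of raw counts, not set against the totals over all regions in each setting. Among fibroblast genes, day-5-only regions lay at Col1a2 (2) and at Col3a1, Col6a1, Loxl1, Mmp2, Prrx1 and Tcf21 (1 each), and day-3-only regions at Col3a1 (2) and at Fbn1, Postn, Prrx1 and Sparc (1 each). A day-5-only region near Col1a2 ranked 23932 and 25603 at day 5, and both full KO day 3 lists held a summit there, at ranks 53016 and 50730. The day-3-only region in Fbn1 ranked 27002 and 17271 at day 3. The part of feeder cells or of extraembryonic cells in the other lists' counts was not tested.

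Counted over all kept summits of each library rather than over called regions, 13 of 24 lists had day 5 and day 3 libraries that did not overlap, 9 of them higher at day 5. For any list, up to a share of 0.333 of the ways to split 4 libraries into 2 and 2 gives no overlap, and some lists share genes. At 14519 summits per library 14 lists did not overlap in the KO, 11 of them higher at day 5. Contractile genes and Wnt ligands were not among those. Contractile genes had 7.12 and 7.83 summits per 10000 in the KO day 5 libraries, against 4.51 and 4.27 in the KO day 3 libraries. That is 7.48 ± 0.504 at day 5 and 4.39 ± 0.168 at day 3 (SD, n = 2 each, exact permutation p = 0.333, the smallest possible), and the adjusted p was 0.615 over 24 lists. Notch pathway genes had 18.99 and 18.51 summits per 10000 at day 5, against 15.7 in each day 3 library, a difference that was -0.12 when genes were assigned within 20 kb. Haematopoietic genes had 14.5 and 13.3 at day 5, against 11.9 and 10.2 at day 3. On the other side, Wnt ligands had 10.2 and 9.73 at day 5, against 11.6 and 13.3 at day 3, and Hox genes had 12.3 and 10.2 at day 5, against 12.8 and 14.5 at day 3, and both differences turned positive at 21064 summits per library (1.90 and 2.37). Trophoblast and extraembryonic endoderm markers had 14.7 and 12.8 at day 5, against 12.3 and 12.1 at day 3, and feeder fibroblast markers 11.2 and 11.9 at day 5, against 10.2 and 10.4 at day 3.

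**Figure D5:**
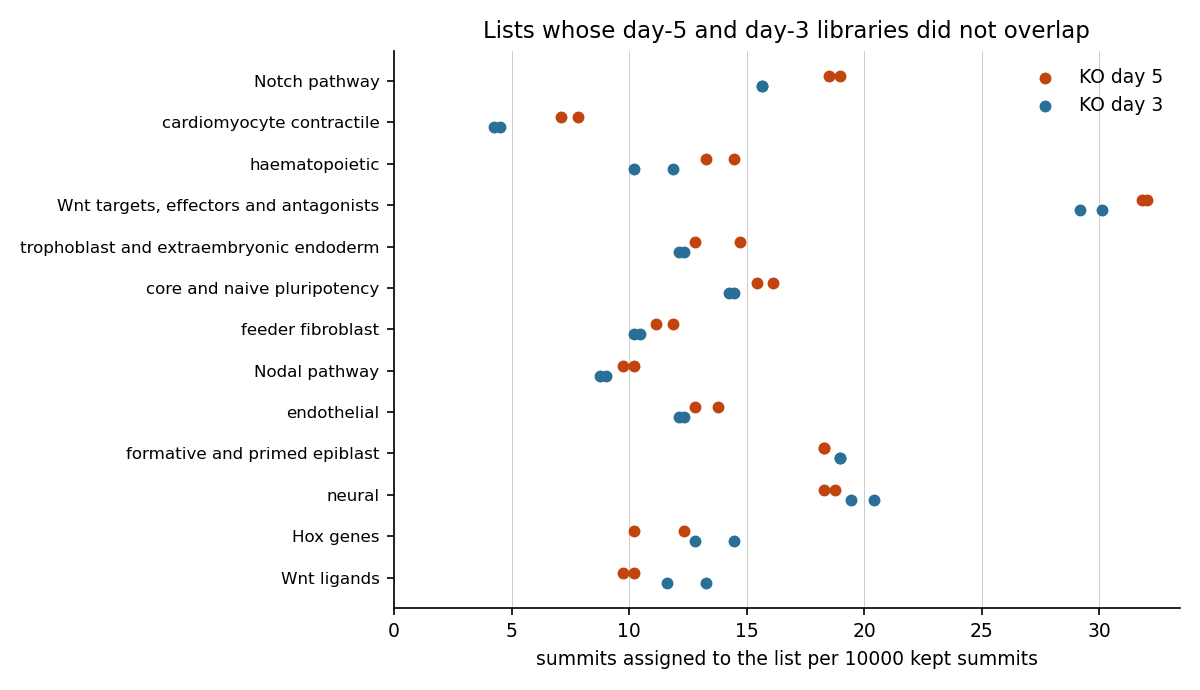
Summits assigned to each list per 10000 kept summits (horizontal axis) in the KO day 5 libraries (red) and the KO day 3 libraries (blue), for the 13 lists whose libraries did not overlap by day. Points are single libraries; contractile genes stand at 7.12 and 7.83 at day 5 and at 4.51 and 4.27 at day 3.

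Whether the change from day 3 to day 5 differed between the KO and iHA-Foxk1 was tested at 14519 summits per library, by permuting days within each line (36 arrangements, smallest exact p 0.0556). At this length the iHA-Foxk1 day 5 replicate 1 list was used whole, and every other list was cut. With so few arrangements the exact permutation test could not pass any list, so it decides nothing about a difference between the lines. Its smallest adjusted p over the 24 lists was 0.8. Pluripotency genes had 6.89 summits per 10000 in each KO day 5 library, against 8.95 and 9.64 in the KO day 3 libraries, while iHA-Foxk1 had 11.02 and 11.71 at day 5, against 8.95 and 9.64 at day 3. The difference of the changes was -4.48 (exact permutation p = 0.0556, adjusted p = 0.8). It was 3.09 with all summits. At 42129 summits the KO itself had more pluripotency summits at day 5, 15.4 and 16.1 per 10000, against 14.5 and 14.2 at day 3, so its direction depends on how many summits are kept.

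Regulators of lateral mesoderm and cardiac progenitors had 12.4 and 13.8 summits per 10000 in KO day 5, against 11.7 and 13.1 in KO day 3, and 25.5 and 31.0 in iHA-Foxk1 day 5, against 17.2 and 13.8 in iHA-Foxk1 day 3. The KO days overlapped and the iHA-Foxk1 days did not, and the difference of the changes was -12.1 (exact permutation p = 0.278, adjusted p = 0.889). Contractile genes had 3.79 ± 0.487 in KO day 5 and 3.10 ± 0.487 in KO day 3 (SD, n = 2 each), and 6.89 ± 1.95 in iHA-Foxk1 day 5 and 3.44 in each iHA-Foxk1 day 3 library. Feeder fibroblast markers had 2.76 and 3.44 in KO day 5, against 4.82 and 2.76 in KO day 3, and 10.3 and 9.64 in iHA-Foxk1 day 5, against 4.13 and 2.07 in iHA-Foxk1 day 3. The part of these fibroblast markers in the results of the other lists was not tested.

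At that list length the best summits lay near gene ends more often at day 5 than at day 3 in both lines. In the KO 61.9% and 60.5% of summits lay within 1 kb of a gene end at day 5, against 51.9% in each day 3 library. In iHA-Foxk1 the shares were 58.4% and 62.8% at day 5, against 50.8% and 50.7% at day 3. The difference between the lines' changes was -0.60 percentage points (exact permutation p = 1). At 42129 summits the gene-end shares of the KO were 29.7% and 30.1% at day 5 and 29.7% and 29.6% at day 3, and their ranges overlapped. Gene bodies then held 31.1% and 31.4% of summits at day 5, against 29.4% and 29.6% at day 3, and the rest of the genome 39.2% and 38.5% at day 5, against 40.9% and 40.8% at day 3.

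The X chromosome held few day-5-only regions. Of its 1426 reproducible regions 48 were day-5-only (3.37%) and 162 day-3-only (11.4%), against 8.77% day-5-only and 10.8% day-3-only on the autosomes. Among autosomes the day-5-only share ran from 5.26% on chromosome 19 to 10.5% on chromosome 8, so X lay below all of them. The day-3-only share of X lay within the range of the autosomes, from 9.17% on chromosome 11 to 13.3% on chromosome 18. X held 3.15% and 3.24% of kept summits at day 5, against 3.54% and 3.53% at day 3.

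Day-5-only regions overlapped 140 and day-3-only regions 139 of 21045 RefSeq promoter windows, which run from 250 bases before to 50 after a gene start, and regions held by all 4 overlapped 9272. The windows had 59.1% G and C bases for day-5-only and 60.4% for day-3-only regions, against 63.1% for regions held by all 4 and 56.4% for all windows. The AP-1 motif TGANTCA, read on both strands, was in 12.9% of day-5-only windows (18) and 6.47% of day-3-only windows (9), against 3.72% for regions held by all 4 and 7.04% of all windows. The GC box GGGCGG was in 47.1% of day-5-only and 52.5% of day-3-only windows, against 73.7% for regions held by all 4 and 46.7% of all windows. The E-box CANNTG was in 64.3% of day-5-only and 78.4% of day-3-only windows, against 61.1% for regions held by all 4 and 69.0% of all windows. The TEAD motif GGAATG was in 16.4% of day-5-only and 10.1% of day-3-only windows, against 10.8% for regions held by all 4 and 13.5% of all windows.

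The forkhead motif TGTTTAC was in 6 day-5-only windows (4.29%) and 5 of 139 day-3-only windows, against 2.15% of windows of regions held by all 4 and 3.03% of all windows. The GATA motif AGATAA was in 4.29% of day-5-only and 7.19% of day-3-only windows, against 9.68% of all windows, and the SOX motif ACAATGG in 2.14% of day-5-only and 5.04% of day-3-only windows, against 2.94% of all windows. Of the sequences shown, both Sp3 windows and those of Klf15, Pde5a and Gdf1 held a GC box, and the Acta2 window held an E-box and the TEAD motif but no GC box. Ctla2b and Rab15 were the genes with an AP-1 match among the 8 best-ranked day-5-only windows with no day 3 summit within 1 kb. A match is a description of these letters and not a bound site, and regions outside the promoter windows could not be read.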

How the data were processed

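ATAC-seq peak summits of 4 KO libraries, 2 of day 5 and 2 of day 3, were analysed, with 4 iHA-Foxk1 libraries, for look-up and for the same calls and counts at 14519 summits per library, and 4 day 10 libraries for look-up. Bowtie2 2.2.4, MACS2 and the mm10 build are named in the submitters' processing notes, without a MACS2 version. The score deposited with each summit is a −log10 p-value or q-value, without a statement of which, and it served only to rank summits within a list. Peak calling per library means that replicates were not pooled. Read depth is unknown, since only summits were deposited: 48391 and 42129 at day 5 and 59006 and 53456 at day 3. No counts exist, so no intervals are given.

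Lists were cut to the 42129 best summits, merged at 250 bp by single linkage, and called by presence, with Python 3.11.15 and NumPy 2.4.6. The planned gene start was replaced by the nearer end of 21631 protein-coding genes of RefSeq (GRCm38.p6, the assembly of mm10), because that table gives neither strand nor exons. Whether a region is exonic or intronic is therefore not given. Promoter windows covered 17274 of these genes. All 490 list symbols were matched. Named were the 8 best-ranked regions of each direction at gene ends and away from them, with no summit of the other day within 1 kb, the 5 genes with most regions, up to 4 regions per list and direction, Foxk1 and Foxk2. Exceptions are stated where they occur. Values per library were set against each other by exact permutation of day labels, two-sided, with Benjamini-Hochberg adjustment over 24 lists. The region calls, assignment and permutation were checked on simulated data. Alternatives were other list lengths, merging distances, absence rules, assignment limits, chromosomes 1 to 19 alone, and leaving out each library. Absence within 2 kb and gene starts of the promoter table were added after seeing the data. Members and gene lists were chosen with earlier results of these data known. Chromosome Y and mitochondrial summits entered no comparison. Values of some single genes of the lists are not reported here.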

Additional observations from a re-analysis of the deposited data

Results flagged for a closer look

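The change of pluripotency summits from day 3 to day 5 went in opposite directions in the 2 lines at 14519 summits per library, in every library. The KO change minus the iHA-Foxk1 change was -4.48 summits per 10000 (-2.41 in the KO and 2.07 in iHA-Foxk1). The exact permutation p of this difference was 0.0556, the smallest that 36 arrangements allow, and the adjusted p over 24 lists was 0.8.

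Summits on the Y chromosome lay outside the comparisons. They made up 0.344% and 0.336% of all summits in the KO day 5 libraries (mean 0.340%), against 0.124% and 0.141% in the iHA-Foxk1 day 5 libraries. In the KO day 3 libraries they made up 0.408% and 0.427% (mean 0.417%), against 0.317% and 0.330% in the iHA-Foxk1 day 3 libraries. Both KO groups stood above the iHA-Foxk1 group of the same day without overlap, and this difference was not tested. The shares are of full lists of unlike length. At day 5 these held 48562 and 42275 summits in the KO against 14540 and 34090 in iHA-Foxk1. At day 3 they held 59252 and 53689 against 53646 and 54283. The part of list length in the shares was not tested.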

How the results depend on the processing

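The number of day-5-only regions (3583) was 1581 at 21064 summits per library, 1487 at 14519 (4 KO libraries merged), 2303 with absence judged on full lists, 1844 with no summit of the other day within 1 kb and 1697 within 2 kb. Leaving out 1 library in turn gave 4814 to 9608, with the counts over 1.5 times the main one when KO day 5 replicate 1 (9608) or replicate 2 (9393) was left out. Day-3-only regions (4533) numbered 8538 with all summits, 1859 at 21064 summits and 1557 at 14519, and 6908 to 8309 with 1 library left out (7153 and 6908 without KO day 5 replicate 1 and replicate 2, and 8309 and 8256 without KO day 3 replicate 1 and replicate 2). A group of 1 library asks for less, which raises the count. Merging at 100 or 500 bp and chromosomes 1 to 19 alone kept both of these totals within 1.5 times, though not the day-5-only count of contractile genes, which was 4 at 100 bp.

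Differences in summits per 10000, day 5 minus day 3, changed sign at 21064 summits for pluripotency (-0.71), endothelial (-0.24), neural (1.19), Wnt ligands (1.90), Wnt targets (-1.19), Nodal (-2.14) and Hox genes (2.37). At 14519 summits they changed sign for pluripotency (-2.41), formative epiblast (3.10), endothelial (-0.34), Nodal (-1.38), Hox genes (0.69) and feeder fibroblast genes (-0.69). Others were formative epiblast with gene starts of the promoter table (0.36), Notch within 20 kb (-0.12) and trophoblast with all summits (-0.39). The pluripotency difference between lines was 3.09 with all summits. The cause of these changes was not tested. No paired analysis was possible because the calls come from no test and the labels tie no day 5 library to a day 3 library beyond a shared number. Without read depth, a region missing from a list cannot be told apart from one sequenced too thinly to be called.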
